A study of Mus musculus with 18 samples.

Results

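Genes for the recognition and engulfment of dying cells were followed through 18 libraries of mouse eosinophils cultured with apoptotic cells (ACs). They were chosen by name, as the rows of the deposited table whose Ensembl gene identifier matched Mertk, Axl, Timd4, Itgav, Lrp1, Gas6, Pros1, Mfge8, Tgm2 or Elmo1, and they make up 10 of the 54446 genes in the table. The eosinophils came from the peritoneal cavity of Il5Tg mice, whose Il5 transgene expands the eosinophil pool, with the strain labelled C57BL/6, and every library, controls included, received ACs, which were dexamethasone-treated thymocytes from wild-type mice. The Type 1 experiment consisted of an ACs group and of groups given E. coli + ACs, IFN-γ + ACs or the combination of both (IFN-γ + E. coli + ACs), and the IL-4 experiment of its own ACs group and an IL-4 + ACs group, each with 3 libraries. Libraries were made by CEL-Seq2, a 3'-end sequencing method, from eosinophils that the methods describe as purified again with anti-Siglec-F beads after culture. Each stimulus was compared with the ACs libraries of its own experiment, which were told apart by the names in their descriptions, since all carry the same treatment label, to ask how a Type 1 or Type 2 environment sets the efferocytosis genes of eosinophils that meet dying cells. Cells without ACs are not analysed here, so the effect of the ACs themselves is not described.

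Efferocytosis is the removal of apoptotic cells by phagocytes. A dying cell exposes phosphatidylserine, which a phagocyte binds either directly, through receptors such as TIM-4 (Timd4), or through soluble bridges such as Gas6, protein S (Pros1) and MFG-E8 (Mfge8), which connect it to the kinases MerTK and Axl or to integrins that contain the αv chain (Itgav). Signals from these receptors run through adaptors such as ELMO1 to Rac and the actin cytoskeleton, which closes the phagocytic cup. In the peritoneal cavity these genes are best known from resident macrophages.

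Values are normalized counts, which are reads on a gene divided by a size factor of the library. Fold changes and their 95% intervals come from limma on log2(normalized count + 1), which understates the change of low genes, and all p-values are adjusted over all genes tested (Benjamini-Hochberg). A gene was called higher or lower at an adjusted p under 0.05 with a change of at least 1.5-fold, the rule in the study's methods. Genes with a mean of at least 10 were tested, and 9 of the 10 efferocytosis genes passed that filter. The libraries held 779421 to 7782072 reads on genes (median 4461121), and replicate 3 of both IL-4 experiment groups stood apart with 779421 reads (ACs) and 849705 reads (IL-4 + ACs). The study describes its replicates as biological, and for its comparison of ACs with untreated cells as taken from different mice, while the labels name no mouse or culture for any library.

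The libraries were checked against cell type markers. Of the 10 listed eosinophil markers, Siglecf (1514 to 3367 over the Type 1 libraries), Ccr3 (2622 to 4934) and Il1rl1 (2595 to 6018) were high. Il5ra, Ear6 and Prg2 were at 57.5 to 2284 there. Prg3 (0 to 11.4), Ear1 (2.45 to 16.3) and Ear2 (0 to 32.5) were low in the Type 1 libraries. The granule gene Epx was at 0 to 3.27 there and at 5.26 to 25.7 in the IL-4 experiment. All 14 listed macrophage markers, among them Adgre1, Csf1r, C1qc and Vsig4, were also detected in every group. Their summed level was 25515 to 33710 in the ACs libraries, 15684 to 20257 under E. coli, 40244 to 49897 under IFN-γ and 18064 to 20551 under the combination. In the IL-4 experiment it was 33043 to 52627 with ACs and 26264 to 44008 with IL-4 + ACs. Bulk libraries cannot tell fewer cells of a type from less RNA per cell, and the part of macrophage RNA in the values below was not tested. Thymocyte markers summed to at most 312 in any library.

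With IFN-γ + ACs, 5 of the 9 tested efferocytosis genes were higher than with ACs (11.4% of the 10166 genes tested were called higher) and 2 were lower (9.96% of all genes). Tgm2, Mertk, Axl, Timd4 and Lrp1 rose, and the bridges Pros1 and Mfge8 fell. With E. coli + ACs none was higher in limma, edgeR or DESeq2 (5.05% of all genes), 0 having a rise with an unadjusted p under 0.05, and 4 were lower (5.25%), namely Timd4, Lrp1, Pros1 and Mfge8. Under the combination 4 were higher (14.7%), which were Tgm2, Elmo1, Itgav and Mertk, and the bridges Pros1 and Mfge8 were lower (17.2% of all genes). When libraries were scaled to a common upper quartile, that split became 2 higher and 4 lower, since Mertk and Itgav were no longer called and Timd4 and Lrp1 were called lower, and the share of higher calls over all genes went from 46.1% to 34.4%. The median log2 change of the 9 was 0.79 with IFN-γ, −0.40 with E. coli and 0.46 with both, against medians of 0, −0.004 and −0.047 over all genes tested. With IL-4 + ACs no efferocytosis gene was called higher (0.74% of 10669 genes) or lower (0.347%) by limma, and 2 had an unadjusted p under 0.05. The 3 Type 1 comparisons share their ACs libraries.

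**Figure D1:**
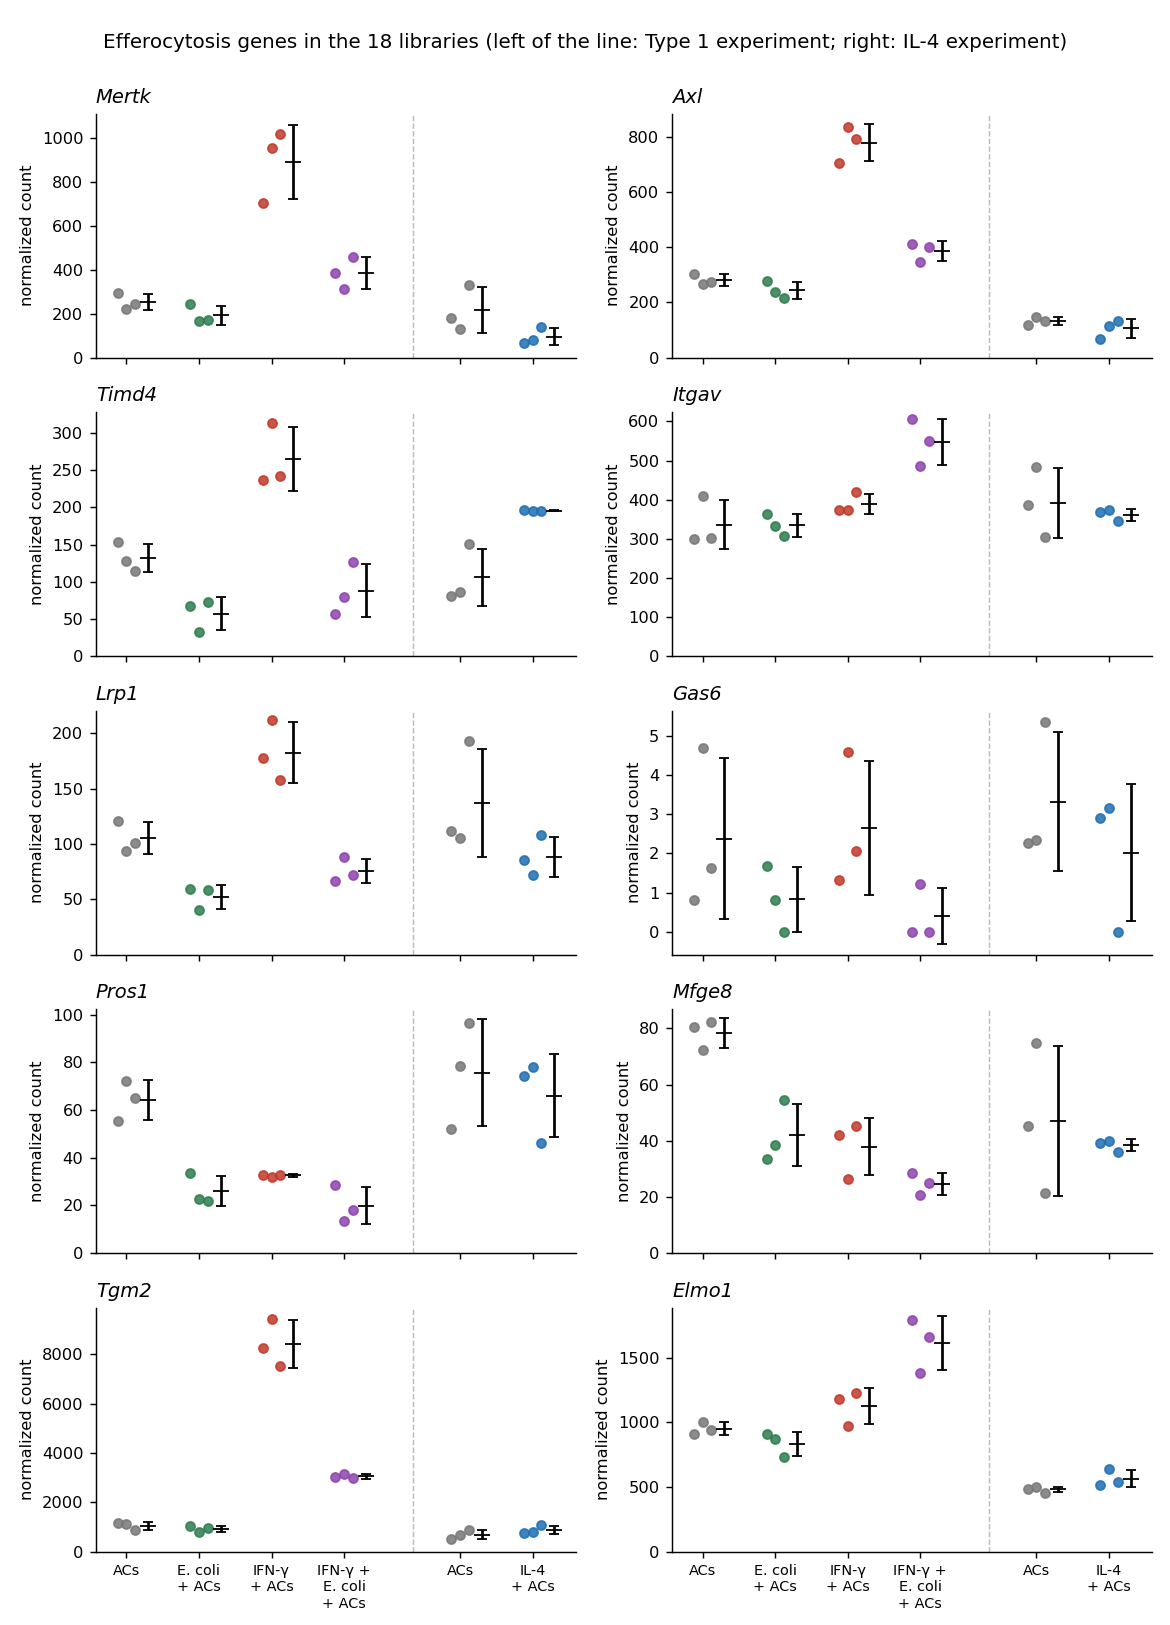
Normalized counts of the 10 efferocytosis genes (y axis, linear) in the 6 groups (x axis). Coloured points are single libraries and black bars the mean ± SD of 3. Tgm2, Mertk and Axl stand highest in the 3 IFN-γ + ACs libraries, Elmo1 and Itgav in the 3 IFN-γ + E. coli + ACs libraries, Pros1 and Mfge8 in the ACs libraries of the Type 1 experiment among its 4 conditions, and Gas6 stays below 5.37 throughout.

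Mertk encodes a receptor tyrosine kinase that binds bridged phosphatidylserine and is the main efferocytic receptor of many macrophages. By quantitative PCR the study found its mRNA in eosinophils to a lesser extent than that of several CD300 genes and Tim4. The gene spans bases 128698956 to 128802894 of chromosome 2 (GRCm38, as for all positions given). Its normalized counts were 294, 221 and 245 in the ACs libraries of the Type 1 experiment (253 ± 37.2, SD, n = 3) and 702, 956 and 1019.9 with IFN-γ + ACs (893 ± 168, SD, n = 3). The groups did not overlap, and the IFN-γ libraries were 3.50-fold higher (95% interval 2.68 to 4.57, adjusted p = 4.47e-07). With IFN-γ + E. coli + ACs the counts were 386, 314 and 459 (387 ± 72.8, SD, n = 3), still above every ACs library, at 1.52-fold (interval 1.16 to 1.99, adjusted p = 0.0144). That call was narrow and was lost without ACs replicate 2 (log2 change 0.51, adjusted p = 0.0710), ACs replicate 3 (0.58, short of 1.5-fold) or replicate 3 of the combination (0.47, adjusted p = 0.0678). E. coli + ACs gave 242, 168 and 169.8, which overlapped with ACs (0.758 times, interval 0.580 to 0.992, adjusted p = 0.177). In order of level the conditions ran IFN-γ, IFN-γ + E. coli, ACs and E. coli, and only the last 2 neighbours, ACs and E. coli, did not differ past the threshold.

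Axl, a related receptor kinase known for its induction by inflammation, lies on chromosome 7 from 25757273 to 25788705. It had 305, 267 and 273 normalized counts with ACs (282 ± 20.5, SD, n = 3) and 707, 838 and 794 with IFN-γ + ACs (779.7 ± 66.6, SD, n = 3). All IFN-γ libraries lay above all ACs libraries, at 2.76-fold (interval 2.27 to 3.36, adjusted p = 1.25e-07). IFN-γ + E. coli + ACs gave 412, 346 and 403, also above every ACs library but short of the fold threshold at 1.37-fold (interval 1.13 to 1.67, adjusted p = 0.0122). E. coli + ACs gave 278, 239.5 and 216, which overlapped with ACs (0.866 times, interval 0.711 to 1.05, adjusted p = 0.370). The order of the conditions was that of Mertk, and neither IFN-γ + E. coli and ACs nor ACs and E. coli differed past the threshold.

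Timd4 encodes TIM-4, which tethers apoptotic cells through phosphatidylserine without a bridge and marks resident peritoneal macrophages. In the study, quantitative PCR found its mRNA in peritoneal eosinophils, but flow cytometry did not find TIM-4 protein on eosinophils. The values here are RNA only. The gene lies on chromosome 11 from 46810800 to 46844332. The ACs libraries held 153, 128 and 115 normalized counts (132 ± 19.3, SD, n = 3), the E. coli + ACs libraries 67.0, 31.9 and 72.1 (57.0 ± 21.9), and the IFN-γ + ACs libraries 237, 314 and 242 (265 ± 42.9). Both single stimuli were without overlap with ACs, in opposite directions. Timd4 was at 0.414 times the ACs level with E. coli (interval 0.272 to 0.632, adjusted p = 0.00556) and 2.00-fold higher with IFN-γ (interval 1.31 to 3.04, adjusted p = 0.0150). The rise with IFN-γ was not called without ACs replicate 3 (log2 change 0.90, adjusted p = 0.0642) or IFN-γ + ACs replicate 2 (0.87, adjusted p = 0.0668). With both stimuli the counts were 57.0, 79.4 and 127, overlapping with ACs (0.638 times, adjusted p = 0.0857), and without the highest of them, replicate 3, the fall was called (log2 change −0.95, adjusted p = 0.0146). ACs, IFN-γ + E. coli and E. coli were neighbours in this order whose adjacent levels did not differ past the threshold.

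Lrp1, a large endocytic receptor that takes part in uptake through calreticulin and C1q, lies on chromosome 10 from 127538161 to 127621148 and followed Timd4. Its normalized counts were 121, 93.85 and 101 with ACs, 59.4, 40.1 and 58.1 with E. coli + ACs, and 178, 212 and 158 with IFN-γ + ACs. None of these 3 groups overlapped with another. Lrp1 fell to 0.498 times the ACs level with E. coli (interval 0.368 to 0.675, adjusted p = 0.00265) and rose 1.72-fold with IFN-γ (interval 1.27 to 2.33, adjusted p = 0.00835). With both stimuli it stood at 67, 87.95 and 71.7, below every ACs library but not past the threshold (0.719 times, adjusted p = 0.0791), and without replicate 2 of that group the fall was called (log2 change −0.59, adjusted p = 0.0459).

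Itgav, the αv integrin chain that receives MFG-E8, lies on chromosome 2 from 83724397 to 83806916 and was called under the combination and in no other of the 4 comparisons with ACs. The normalized counts were 298, 408 and 303 with ACs (336 ± 62.2, SD, n = 3) and 606, 486 and 550.5 under the combination (547.5 ± 59.9, SD, n = 3). The groups did not overlap, and the rise was 1.64-fold (interval 1.33 to 2.02, adjusted p = 0.000661), which under a common upper quartile was short of 1.5-fold (log2 change 0.57). With E. coli + ACs it was at 306 to 362 and with IFN-γ + ACs at 373 to 419, both overlapping with ACs. E. coli gave 1.00 times the ACs level (interval 0.812 to 1.23) and IFN-γ 1.17 times (interval 0.945 to 1.44).

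Both bridges that could be tested were lower with every Type 1 stimulus. Pros1, on chromosome 16 from 62854307 to 62929346, encodes protein S, a ligand of MerTK that is better known as an anticoagulant cofactor. It had 55.3, 72.3 and 65.2 normalized counts with ACs (64.3 ± 8.52, SD, n = 3) and was lower in all 9 stimulated Type 1 libraries, at 22.0 to 33.5 with E. coli, 32.1 to 33.0 with IFN-γ and 13.4 to 28.5 with both. It fell to 0.411 times the ACs level with E. coli (interval 0.263 to 0.642, adjusted p = 0.00794), 0.518 times with IFN-γ (interval 0.332 to 0.810, adjusted p = 0.0275) and 0.309 times with both (interval 0.198 to 0.483, adjusted p = 0.000230). Only the IFN-γ call was sensitive to single libraries, being lost without ACs replicate 2 or 3 or without any 1 of the IFN-γ libraries (adjusted p 0.0518 to 0.102). The levels under the 3 stimuli did not differ from their neighbours past the threshold.

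Mfge8 encodes the bridge between phosphatidylserine and αv integrins and lies on chromosome 7 from 79133768 to 79149060. Its ACs libraries held 80.5, 72.3 and 82.4 normalized counts (78.4 ± 5.38, SD, n = 3). The counts were 33.5, 38.4 and 54.5 with E. coli, 42.2, 26.4 and 45.15 with IFN-γ, and 28.5, 20.8 and 24.8 with both, so all 9 stimulated libraries lay below all ACs libraries. The level was 0.533 times that of ACs with E. coli (interval 0.356 to 0.798, adjusted p = 0.0365), 0.479 times with IFN-γ (interval 0.320 to 0.716, adjusted p = 0.00744) and 0.322 times with both (interval 0.215 to 0.482, adjusted p = 0.000116). The E. coli call was lost without any 1 of the ACs libraries or E. coli + ACs replicate 1 or 2 (adjusted p 0.0768 to 0.155).

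Gas6, the bridge that binds Axl and MerTK, lies on chromosome 8 from 13465374 to 13494490 and was scarcely read at all. It gathered 36 reads over the 18 libraries, with no read in 4 of them and at most 6 in any 1, a normalized count of 0 to 5.36. Its mean was 1.57 over the 12 Type 1 libraries and 2.67 over the 6 of the IL-4 experiment. Gas6 was thus below the filter of a mean of at least 10, so it was not tested and no fold is given. At this depth 3 reads or fewer in a library cannot be told from 0, and 4 libraries had more. Reads summed to 8 in the ACs group, 3 under E. coli, 6 under IFN-γ and 1 under the combination, and to 7 with ACs and 11 with IL-4 + ACs in the IL-4 experiment.

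Tgm2 encodes transglutaminase 2, a crosslinking enzyme that also serves as a coreceptor for αv integrins and MFG-E8 during uptake. It lies on chromosome 2 from 158116402 to 158146436, and it showed the strongest response of the 9 tested genes. Its normalized counts were 1149, 1125 and 859 with ACs (1044 ± 161, SD, n = 3), 8273, 9453 and 7546 with IFN-γ + ACs (8424 ± 963, SD, n = 3) and 3025, 3159 and 2968 under the combination (3050.5 ± 98.1, SD, n = 3). The 3 groups were far apart. IFN-γ raised Tgm2 8.09-fold (interval 6.70 to 9.78, adjusted p = 2.35e-12) and the combination 2.94-fold (interval 2.44 to 3.56, adjusted p = 1.97e-08). E. coli + ACs, at 1036, 798 and 976, overlapped with ACs (0.899 times, interval 0.744 to 1.09, adjusted p = 0.510). All neighbours in the order IFN-γ, IFN-γ + E. coli, ACs and E. coli differed past the threshold except the last pair, as for Mertk.

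Elmo1, on chromosome 13 from 20090596 to 20608353, encodes the adaptor that acts with DOCK proteins as an activator of Rac. With ACs it had 912, 1004 and 937 normalized counts (951 ± 47.5, SD, n = 3) and, under the combination, 1789, 1384 and 1662.5 (1612 ± 207, SD, n = 3). The combination libraries lay above all others of the experiment, 1.69-fold over ACs (interval 1.40 to 2.03, adjusted p = 0.000121). With E. coli + ACs the counts were 906, 869 and 729, each below every ACs library, although the fall was not past the threshold (0.875 times, interval 0.726 to 1.05, adjusted p = 0.380). IFN-γ + ACs gave 1179, 971 and 1229, which overlapped with ACs (1.18 times, interval 0.978 to 1.42, adjusted p = 0.187).

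The macrophage markers also changed with the stimuli. Of the 14 markers none was higher and 6 were lower with E. coli (median log2 change −0.69), 4 were higher and 1 lower with IFN-γ (0.27), and 3 were higher and 9 lower with both (−1.26). The mean of their summed level was 0.619 times that of ACs with E. coli, 1.53 times with IFN-γ and 0.650 times with both. The markers did not move as 1 with both stimuli. The 3 that were higher were Adgre1 (mean 1806 with ACs, 2987 with both), Marco (707 and 1247) and Mpeg1 (727 and 2800.5). The falls of Timd4 and Lrp1 with both were not called (adjusted p = 0.0857 and 0.0791 in limma). What macrophage RNA contributed to the values of the efferocytosis genes was not tested. The sum of the 10 listed eosinophil markers was 12099 to 13217 with ACs and 13403 to 15617 with E. coli. It was 7454 to 9111 with IFN-γ and 11473 to 14342 with both. Of the 7 tested eosinophil markers 4 were lower with IFN-γ and 3 did not pass the threshold.

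**Figure D2:**
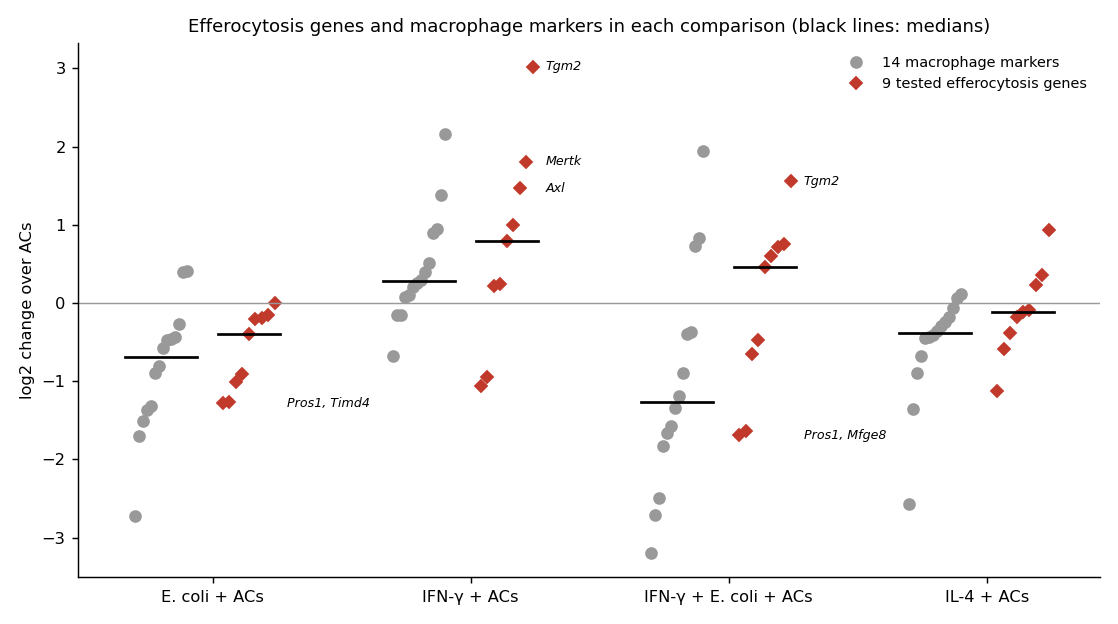
Log2 change over ACs of the same experiment (y axis) for the 14 macrophage markers (grey circles) and the 9 tested efferocytosis genes (red diamonds) in the 4 comparisons (x axis), with medians as black lines. With the combination the marker median is −1.26 and that of the efferocytosis genes 0.46, and with E. coli they are −0.69 and −0.40.

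Comparison among the stimuli showed what each added to the other. When E. coli was added to IFN-γ + ACs, 5 of the 9 tested genes were called, all lower (14.6% of all genes were called higher or lower). They were Tgm2 (0.364 times), Timd4 (0.320 times), Lrp1 (0.417 times), Mertk (0.434 times) and Axl (0.497 times), with adjusted p-values of 0.000517 or less. The macrophage markers fell in the same comparison, 11 of 14 being lower with a median log2 change of −1.63. When IFN-γ was added to E. coli + ACs, 5 genes were called, all higher (19.4% of all genes). Tgm2 rose 3.27-fold, Mertk 2.00-fold, Elmo1 1.93-fold, Itgav 1.63-fold and Axl 1.58-fold, the last of which was short of 1.5-fold without E. coli + ACs replicate 3 (log2 change 0.58) or under a common upper quartile (0.555). Mfge8 was called lower in this contrast under that scaling (−0.83, adjusted p = 0.0321) or without IFN-γ + ACs replicate 2 (−0.73, adjusted p = 0.0455), and Timd4 was called higher without replicate 1 of the combination (0.89, adjusted p = 0.0422). Between the single stimuli, 5 genes were higher with IFN-γ than with E. coli (16.6% of all genes were called higher or lower), namely Tgm2 (937 against 8424), Timd4 (4.82-fold), Mertk (4.61-fold), Lrp1 (3.46-fold) and Axl (3.19-fold), and 10 of the 14 macrophage markers were higher too (median 1.29). These contrasts share libraries with each other and with those above.

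The effect of E. coli differed with and without IFN-γ for 3 of the 9 genes (interaction term, 7.44% of all genes called). E. coli left Tgm2 at 0.899 times without IFN-γ and at 0.364 times with it, a difference of −1.31 on the log2 scale (SE 0.184, adjusted p = 0.000184). For Axl the values were 0.866 and 0.497 times, with a difference of −0.80 (SE 0.192, adjusted p = 0.0147). Elmo1 went in the opposite direction, at 0.875 times without IFN-γ and 1.43 times with it, a difference of 0.71 (SE 0.182, adjusted p = 0.0213). Mertk had a difference of the same size as Axl, −0.80, with a wider error (SE 0.261, adjusted p = 0.0668). The Axl term was lost without E. coli + ACs replicate 1 (−0.71, adjusted p = 0.0573), and the Elmo1 term without ACs replicate 2 or 3, E. coli + ACs replicate 3, IFN-γ + ACs replicate 2 or IFN-γ + E. coli + ACs replicate 1 (0.61 to 0.72, adjusted p 0.0511 to 0.0696). For Mertk the term was called by DESeq2 on the recovered reads of all 12 libraries (−0.785, adjusted p = 0.0372), and in limma without IFN-γ + ACs replicate 1 (−0.97, adjusted p = 0.0333) or IFN-γ + E. coli + ACs replicate 3 (−0.94, adjusted p = 0.0323).

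**Figure D3:**
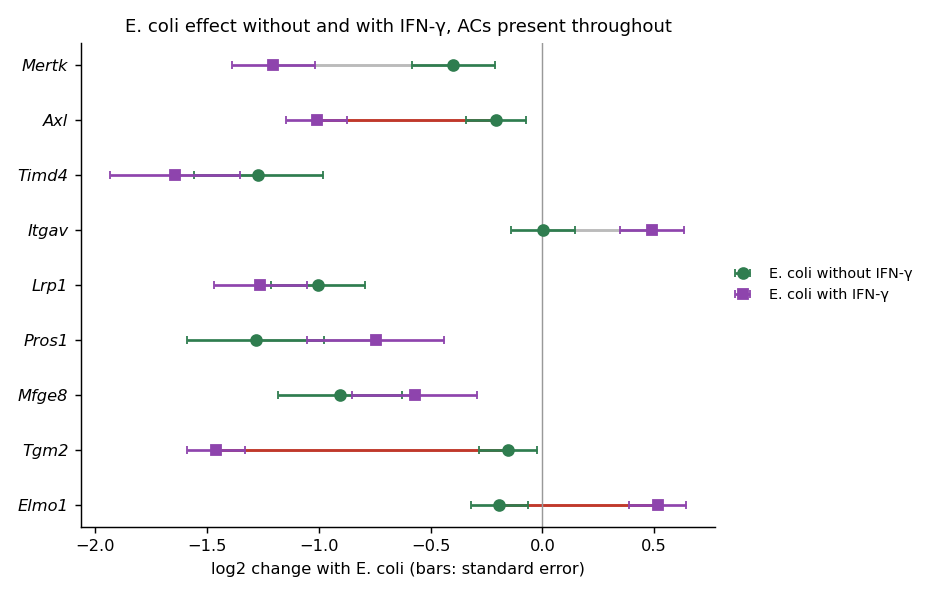
Log2 change with E. coli (x axis, bars are standard errors) for the 9 tested genes, without IFN-γ (green circles) and with IFN-γ (purple squares), all with ACs. The joining line is red for Axl, Tgm2 and Elmo1, whose interaction terms of −0.80, −1.31 and 0.71 passed the threshold, and grey for the others.

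In the IL-4 experiment the receptors moved apart without passing the threshold in limma. Mertk had 181, 132 and 332 normalized counts with ACs and 68.4, 79.6 and 139 with IL-4 + ACs, so IL-4 + ACs replicate 3, a shallow library with 27 reads behind its value, overlapped with the lowest ACs library. The level with IL-4 was 0.459 times that of ACs (interval 0.264 to 0.798, unadjusted p = 0.0106, adjusted p = 0.322). Timd4 ran the other way, at 81.2, 86.4 and 150.1 with ACs and 196, 195 and 195 with IL-4 + ACs, without overlap. It was 1.91-fold higher (interval 1.31 to 2.79, unadjusted p = 0.00350, adjusted p = 0.174). Both genes were called when replicate 3 of both groups was left out, Timd4 at a log2 change of 1.21 (adjusted p = 0.000610) and Mertk at −1.06 (adjusted p = 0.00601), an alternative added after the shallow libraries were seen, with 656 genes called in place of 116.

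The other tools, run on reads of the same 6 libraries, both called Timd4 and differed on Mertk. edgeR on the recovered reads called Timd4 alone of the 9 (log2 change 1.06, adjusted p = 0.0165), and DESeq2 called Timd4 (1.01, adjusted p = 0.0121) and Mertk (−1.20, adjusted p = 0.0194). Of the 14 macrophage markers 3 were lower with IL-4 and none higher in limma (median log2 change −0.38), and the mean of their summed level was 0.789 times that of ACs. What macrophage RNA contributed to the values in this experiment was not tested. The remaining 7 tested genes had fold changes of 0.664 (Lrp1) to 1.29 (Tgm2) with adjusted p-values of 0.536 or more, and Elmo1, at 456 to 501 with ACs and 516 to 637 with IL-4, was the only one of them without overlap (1.17 times, interval 0.939 to 1.45).

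**Figure D4:**
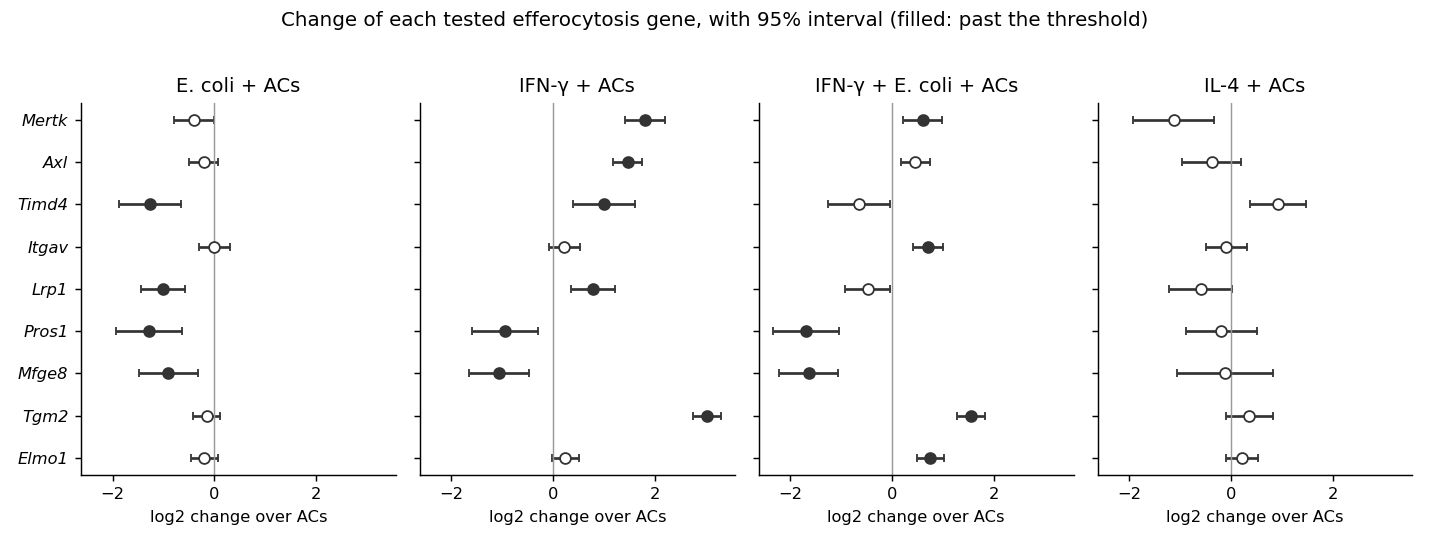
Log2 change over ACs of the same experiment (x axis) for the 9 tested genes (rows) with 95% intervals, in the 4 comparisons. Filled points passed the threshold, which holds for 4 genes with E. coli, 7 with IFN-γ, 6 with both and none with IL-4.

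Some pairs of the 9 genes had like profiles over the 12 Type 1 libraries, given as Pearson's r of log2(normalized count + 1). These values are a description, since the libraries and their conditions are shared. Mertk and Axl had r = 0.989, Tgm2 had 0.950 with Mertk and 0.965 with Axl, Timd4 and Lrp1 had 0.954, Itgav and Elmo1 0.935, and Pros1 and Mfge8 0.823. Lrp1 also had 0.810 with Mertk and 0.807 with Axl, and Timd4 had 0.801 with Mertk. Of the 36 pairs 9 exceeded 0.8 and 12 were below 0, the lowest being Itgav with Mfge8 at −0.690. Over all genes with a mean of at least 50, the 3 profiles closest to that of Tgm2 were Pla2g16 (0.990), the MHC class II gene H2-Ab1 (0.989) and Ly6a (0.986). Closest to Mertk were lipoprotein lipase Lpl (0.989), Axl (0.989) and arginase Arg1 (0.985), and closest to Pros1 were the linker histone gene H1f0 (0.945), Prkacb (0.933) and Foxred2 (0.926).

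Mertk and Axl kept close profiles, and Lrp1 and Pros1 moved in opposite directions with IFN-γ. The 250 bases before their start sites were therefore read from the RefSeq promoter table (GRCm38.p6). That table had entries for 9 of the 10 genes and 10 windows in all, Elmo1 having 2. Tgm2, the gene with the largest rise with IFN-γ among those tested, had no entry and was not searched. Both strands of each window were searched for TTCNNNGAA, a form bound by factors of the STAT family, for TTCNNNNGAA, the wider form that STAT6 prefers, and for GAAANNGAAA, the core bound by interferon regulatory factors, where N is any base and overlaps were allowed. Capitals mark matches in the sequences, which are written 5′ to 3′ on the strand of the gene. Mertk is at chr2:128698665-128698914, plus strand, Axl at chr7:25788734-25788983, minus strand, Lrp1 at chr10:127621149-127621398, minus strand, and Pros1 at chr16:62854057-62854306, plus strand.
Mertk: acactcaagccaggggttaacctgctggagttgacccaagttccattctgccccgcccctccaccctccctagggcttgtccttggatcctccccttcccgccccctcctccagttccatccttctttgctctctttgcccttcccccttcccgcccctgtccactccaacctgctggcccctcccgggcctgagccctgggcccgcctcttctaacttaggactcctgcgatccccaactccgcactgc
Axl: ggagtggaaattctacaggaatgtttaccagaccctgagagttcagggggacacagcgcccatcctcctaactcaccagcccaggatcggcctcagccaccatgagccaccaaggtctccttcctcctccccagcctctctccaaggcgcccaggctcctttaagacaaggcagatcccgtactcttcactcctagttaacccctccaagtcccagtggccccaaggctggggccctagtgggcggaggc
Lrp1: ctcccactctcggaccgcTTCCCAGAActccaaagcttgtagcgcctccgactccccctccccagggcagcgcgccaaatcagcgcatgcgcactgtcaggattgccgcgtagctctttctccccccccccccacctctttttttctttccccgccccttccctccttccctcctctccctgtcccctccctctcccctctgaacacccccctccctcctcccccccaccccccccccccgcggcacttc
Pros1: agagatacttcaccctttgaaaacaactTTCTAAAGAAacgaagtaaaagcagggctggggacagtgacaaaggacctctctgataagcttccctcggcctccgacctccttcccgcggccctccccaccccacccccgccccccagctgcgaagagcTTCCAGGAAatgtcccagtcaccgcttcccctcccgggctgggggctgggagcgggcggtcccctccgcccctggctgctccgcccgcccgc
The Mertk and Axl windows held none of the 3 forms. Lrp1 held a TTCNNNGAA beginning 232 bases before the start, and Pros1 held one at 92 bases and a TTCNNNNGAA at 222 bases before it. The second Elmo1 window held 2 matches of TTCNNNGAA, and the other 7 windows held no match of any form. Of all 32851 windows listed, 7.02% held TTCNNNGAA, 5.85% TTCNNNNGAA and 2.98% GAAANNGAAA. These are matches of letters in a short window, not measured binding.

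The rest of the pathway was followed through lists chosen by function. Over all genes tested, 5.05% were called higher and 5.25% lower with E. coli, and 11.4% and 9.96% with IFN-γ. The shares were 14.7% and 17.2% with both, and 0.74% and 0.347% with IL-4. Counts near these shares do not set a list apart from other genes. Of 18 other receptors and tethers 12 were tested in the Type 1 experiment, and 1 was higher and 3 lower with E. coli, none higher and 3 lower with IFN-γ, and 1 higher and 5 lower with both (median log2 changes −0.30, −0.28 and −0.42). Havcr2, which encodes the phosphatidylserine receptor TIM-3, fell from 65.8 with ACs to 17.1 with E. coli and 4.41 with both. Cd36, a scavenger receptor that binds oxidized lipids, fell from 144 to 49.0 and 25.1. Olr1, the oxidized LDL receptor, rose 2.97-fold with E. coli and 5.03-fold with both. With IFN-γ the integrin chain Itgb3, a partner of αv, fell to 0.368 times the ACs level, while the phosphatidylserine-binding Cd300a and Cd300lb fell to 0.620 and 0.639 times. None of the 13 tested with IL-4 was called in limma, 3 having an unadjusted p under 0.05, while edgeR and DESeq2 called 2 each.

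Of 16 other bridging and opsonizing proteins 12 were tested, and 3 of the 16 (C1qa, C1qb and C1qc) are also on the macrophage list. With E. coli 2 were higher and 4 lower, with IFN-γ 5 higher and 1 lower, and with both 2 higher and 4 lower (medians −0.42, 0.45 and −0.33), and none was called with IL-4 in limma, edgeR or DESeq2 (2 with an unadjusted p under 0.05). Thbs1, thrombospondin, a bridge to αv integrins and CD36, rose 4.46-fold with IFN-γ and 7.18-fold with both. Complement C3 rose 4.08-fold with IFN-γ, and the pentraxin Ptx3 3.91-fold with E. coli. Annexin A1 (Anxa1) fell in all 3 comparisons, from 268 to 54.2, 66.9 and 54.9. C1qc fell to 0.352 times with E. coli and C1qa to 0.178 times with both.

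Engulfment signalling was followed in 23 genes, of which 20 were tested. With E. coli 1 was higher and 1 lower in limma, while edgeR and DESeq2 called 4 each, with IFN-γ 4 higher and none lower, and with both 4 higher and 1 lower (medians 0.20, 0.15 and 0.17), with none of 21 called with IL-4 by the 3 tools (2 with an unadjusted p under 0.05). The kinase Src rose 9.04-fold with both, from 6.72 to 62.1, and the transporter Abca7 1.68-fold. Arhgap12, a Rac GTPase-activating protein, fell to 0.328 times with E. coli and 0.621 times with both and rose 1.63-fold with IFN-γ, and the adaptor Crk rose 1.51-fold with IFN-γ. Of 25 phagosome and corpse-processing genes 24 were tested, with none higher and 1 lower with E. coli, 3 higher and none lower with IFN-γ, 4 higher and 4 lower with both, and none with IL-4 in limma (1 with an unadjusted p under 0.05, 1 called by edgeR and 1 by DESeq2). The 3 higher with IFN-γ and the 4 higher and 4 lower with both lay near the shares over all genes. The lysosomal protease Ctsl fell to 0.403 times with E. coli and 0.265 times with both. The early endosome GTPase Rab5c rose 1.61-fold with IFN-γ and 1.93-fold with both, Lamp2 rose 1.68-fold and Rab7 1.54-fold with IFN-γ, and the autophagy gene Uvrag fell to 0.480 times with both.

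Receptors for find-me signals, which draw phagocytes to dying cells, were tested for 8 of 12 listed, with 4 higher and none lower with E. coli, 2 higher and 2 lower with IFN-γ, 4 higher and 2 lower with both, and 1 lower with IL-4. Cxcr2 rose 6.40-fold with E. coli and 3.82-fold with both. The formyl peptide receptor Fpr2 rose 1.84-fold with E. coli, 3.92-fold with IFN-γ and 2.83-fold with both, and with IL-4 it fell to 0.168 times the ACs level. The sphingosine phosphate receptor S1pr1 rose 1.77-fold with E. coli and fell to 0.480 times with IFN-γ, S1pr4 fell to 0.428 times with IFN-γ, and Gpr132 to 0.554 times with both. Among 10 do-not-eat-me genes 4 were higher and 1 lower with E. coli, 2 higher and 2 lower with IFN-γ, 3 higher and 1 lower with both, and 1 lower with IL-4. Plaur, the urokinase receptor gene, rose 2.50-fold with E. coli, 1.69-fold with IFN-γ and 2.71-fold with both. Siglecg, the inhibitory receptor for CD24, fell to 0.195 times with IFN-γ and 0.224 times with both. Pilra rose 2.32-fold with E. coli and fell to 0.240 times with IL-4.

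Another list held nuclear receptor, lipid and transporter genes described as induced in phagocytes. With E. coli none of the 12 tested was past the threshold in limma, edgeR or DESeq2, although 6 had an unadjusted p under 0.05. With IFN-γ 5 were higher, and with both 4 were higher and 2 lower. None was called with IL-4 by the 3 tools (1 with an unadjusted p under 0.05). The glucose transporter Slc2a1 rose 2.97-fold with IFN-γ and 5.94-fold with both, the cholesterol exporter Abca1 2.79-fold with IFN-γ, and the nuclear receptor Ppard 2.38-fold and 2.35-fold. Slc29a3 fell to 0.507 times with both. In the list of MerTK and Axl feedback and shedding, 10 of 12 genes were tested and 1 was lower with E. coli (Klf4, 0.348 times), 4 were higher with IFN-γ, 6 were higher with both, and none was called with IL-4 in limma (3 with an unadjusted p under 0.05, 1 called by edgeR and 1 by DESeq2). Socs1, a feedback inhibitor of cytokine signalling, rose 2.78-fold with IFN-γ and 2.73-fold with both, and the interferon receptor chain Ifnar2, 1.96-fold and 2.31-fold.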

How the data were processed

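The authors deposited 1 table of normalized counts, a signal per gene and library. Per the labels, reads were processed with FastQC 0.11.5, Trim Galore, cutadapt 1.10, TopHat2 2.1.0, Bowtie2 2.2.6, HTSeq 0.6.1 and DESeq2 1.26.0 on GRCm38. The methods describe 2 pipelines. The strand setting and any collapsing of molecular identifiers are not given in the sources used here, so values are reads. Other genes overlap Mertk, Itgav, Lrp1, Gas6, Tgm2 and Elmo1 on the opposite strand, and Mertk and Elmo1 also on the same strand. The methods name the union mode of HTSeq for the TopHat2 pipeline. How reads in the shared stretches entered the deposited values is not known. Dividing each library by its smallest step gave whole reads for 100.0% of values, which were used only with edgeR 4.0.16 and DESeq2 1.42.0 as alternatives. Identifiers were matched to GENCODE symbols for 54409 of 54446 genes, with 37 unmatched.

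Groups and replicate numbers came from the labels. All 6 ACs libraries have the same treatment label, and their experiment was taken from the description field, where 3 are named like the other Type 1 libraries and 3 like the IL-4 + ACs libraries. The main fits used limma 3.58.1 in R 4.3.3 (lmFit, eBayes with trend) on log2(value + 1) over genes with a mean of at least 10, with 1 fit for the 12 Type 1 libraries and 1 for the 6 libraries of the IL-4 experiment. Replicates differed by more than counting error (chi-square per degree of freedom 3.92 to 13.15). Intervals are 95%, and the floor of 3 reads covers counting error only. The fits were tested on simulated data. Alternatives were a pseudocount of 5, a minimum mean of 50, no minimum (any value above 0), a common upper quartile, a replicate block, all 18 libraries in one fit, edgeR, DESeq2 and leaving out single replicates. The 10 genes and all lists were chosen with earlier results of these data known. Named list genes are up to 3 per comparison and list with the largest change among those called, with groups that do not overlap and a higher mean of 50 or more. Some genes that this rule names are not reported here. Genes of like pattern are the 3 with the highest Pearson r to each of the 3 genes with the largest change. Python 3.11.15, pandas 2.3.3, numpy 2.4.6 and matplotlib 3.10.9 were used.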

Additional observations from a re-analysis of the deposited data

Results flagged for a closer look

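The effect of E. coli differed between cultures with and without IFN-γ for 3 of the 9 tested genes, by the interaction term of the limma fit over the 12 Type 1 libraries, and DESeq2 on the recovered reads also called Mertk (−0.785, adjusted p = 0.0372). The log2 effect of E. coli with IFN-γ minus that without it was −1.31 for Tgm2, −0.80 for Axl and 0.71 for Elmo1. Over all 10166 genes tested 756 passed the same threshold (7.44%). In Tgm2 and Axl the IFN-γ + E. coli + ACs libraries lay between the IFN-γ + ACs and the ACs libraries, at 2968 to 3159 for Tgm2 and 346 to 412 for Axl, whereas for Elmo1 they lay above all others, at 1384 to 1789. Among the 14 macrophage markers 7 had a negative interaction past the threshold and none a positive one (median −0.78), and their part in the Tgm2 and Axl values was not tested.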

How the results depend on the processing

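Of the calls against ACs, those of Tgm2, Mertk, Axl, Lrp1 and Mfge8 with IFN-γ, of Timd4, Lrp1 and Pros1 with E. coli, and of Tgm2, Elmo1, Pros1 and Mfge8 with both stimuli kept their direction and side of the threshold under every alternative that tested them. A mean of at least 50 left fewer genes, and with E. coli 2 efferocytosis genes were then called in place of 4. Scaling to a common upper quartile moved the median log2 change of all genes in the combination from −0.047 to −0.184 and the share of calls that were higher from 46.1% to 34.4%. The efferocytosis genes then split into 2 higher and 4 lower, with Mertk (0.46) and Itgav (0.57) no longer called higher and Timd4 (−0.79) and Lrp1 (−0.61) called lower. With any value above 0 the calls of Mfge8 with E. coli and Pros1 with IFN-γ were lost. With all 18 libraries in one fit those of Mfge8 with E. coli, Mertk with both and the Axl interaction were lost. The causes were not tested.

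The IL-4 comparison depended most on the setting. Limma called 116 genes, against 208 with any value above 0, 212 by edgeR, 209 by DESeq2, 221 with all 18 libraries, 656 without replicate 3 of both groups, and 47 to 130 leaving out 1 replicate. Efferocytosis genes called were 2, 1, 2, 1 and 2 in the first 5 of these, and 0 to 1 leaving out 1 replicate, the exception being ACs replicate 3, without which Timd4 was called. The interaction was called for 756 genes, 495 with all 18 libraries, and 400 to 1026 leaving out 1 replicate, the fewest without E. coli + ACs replicate 1.

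Changes near 0 turned sign. Itgav with E. coli (0.00) was −0.030 with the upper quartile, −0.016 by edgeR, −0.015 by DESeq2 and −0.077 to 0.149 leaving out 1 replicate. With IL-4, Pros1 was 0.044 by edgeR, 0.248 without replicate 3 of both groups and −0.429 to 0.052 leaving out 1 replicate, and Itgav was −0.255 to 0.074 and Mfge8 −0.584 to 0.293. Mfge8 between IFN-γ and E. coli was −0.303 to 0.079.

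Replicate numbers did not pair the libraries, since residuals of same-numbered libraries had r between −0.09 and 0.09 in the Type 1 experiment and 0 and 0.02 in the IL-4 experiment. With a replicate block the IL-4 comparison called 74 genes, and no call of an efferocytosis gene changed. In the shallow libraries of that experiment 1 read stood for a normalized count of 5.36 or 5.14, which limits low genes such as Gas6 and Mfge8.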

Other observations

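The ACs libraries of the 2 experiments, which received the same label, stood at unlike levels for some of the genes. Elmo1 had 912 to 1004 normalized counts in the Type 1 experiment and 456 to 501 in the IL-4 experiment, Axl had 267 to 305 and 118 to 149, and neither pair of ranges overlapped. Tgm2 had 859 to 1149 and 517 to 869, Mertk 221 to 294 and 132 to 332, and Timd4 115 to 153 and 81.2 to 150.1, all of which overlapped. The summed macrophage markers were at 25515 to 33710 and 33043 to 52627. These values are given side by side without a test, since experiment and any other difference between them cannot be told apart.

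Ighm was on the list of B cell markers, whose 8 genes summed to 903 to 1047 with ACs, 313 to 320 with E. coli, 106 to 183 with IFN-γ and 159 to 181 with both, without overlap between ACs and any stimulus. Mast cell markers summed to at most 67.6 and mesothelial and stromal markers to at most 308 in any library, and neutrophil markers to 1578 to 2612 in the Type 1 and 3909 to 5049 in the IL-4 experiment. Most of the neutrophil sum came from Retnlg and Mmp8. Retnlg had means of 1665 and 3996 in the ACs groups of the Type 1 and IL-4 experiments, and Mmp8 had 522 and 325. In the same groups the means of Ly6g, Mpo, Elane, Camp, Ltf and Ngp were at most 6.09, and those of Csf3r and Cxcr2 were 39.6 to 56.6.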
